A study of Mus musculus with 4 samples.

Results

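The 10 genes described here encode the kinases that phosphorylate the tail of RNA polymerase II (Pol II), their cyclins, 1 inhibitor and a pair of proteins that bind the phosphorylated tail. They are Cdk7, Cdk9, Ccnt1, Ccnt2, Hexim1, Cdk12, Cdk13, Ccnk, Scaf4 and Scaf8, and they were taken by symbol from the 37718 gene rows of the count tables. In mm10, Cdk7 (bases 100702631 to 100730939) and Cdk13 (17710315 to 17805097) lie on chromosome 13, Cdk12 (98203059 to 98278504) and Hexim1 (103116231 to 103119725) on chromosome 11, Cdk9 on chromosome 2 (32705784 to 32713076), Ccnt1 on 15 (98538689 to 98570923), Ccnt2 on 1 (127774164 to 127808061) and Scaf8 on 17 (3114972 to 3198859). Ccnk on chromosome 12 and Scaf4 on chromosome 16 are placed where they are described. All 10 were found, with 185 exon segments, 123 annotated and 8 unannotated splice junctions, and 110 introns in 9 of the genes, since Hexim1 has no intron. They were selected on the exonic and intronic differences between the genotypes in these same samples, which were already known, so those differences are given as a description, and counts of these genes past a threshold support nothing.

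RNA was measured in hCD4+ cells of mouse testis at 20 days post partum. The cells carry human CD4 under the endogenous Tdrd6 promoter and were captured on magnetic beads, which enriched for spermatocytes in the diplotene stage of meiosis. The comparison was between 2 Tdrd6-/- samples, which lack the germ cell protein TDRD6, and 2 Tdrd6+/- samples, which keep 1 functional copy and served as controls. Each sample was a pool, made from at least 4 mice, and its RNA was treated with DNase I and depleted of ribosomal RNA before directional sequencing, so that unspliced transcripts were kept beside spliced ones. With pooled cells a change in the share of a cell type cannot be told apart from a change in RNA per cell.

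Each sample held 43778449 to 47221554 tallied fragments, of which 21.9% to 31.0% fell on introns, the lowest share being that of Tdrd6-/- replicate 2. The targeted gene Tdrd6 had 1269 and 1412 CPM (counts scaled to the size of the library) in the Tdrd6+/- pools against 11.4 and 12.5 CPM in the Tdrd6-/- pools. The summed level of 8 late prophase spermatocyte markers was between 4038 and 4240 CPM in all samples, with Sycp1 called higher (log2 change 0.60, edgeR adjusted p = 0.0467) and Piwil1 called lower (-0.44, edgeR adjusted p = 0.0773). The summed level of 6 Sertoli cell markers was between 37.9 and 48.5 CPM. For 8 spermatogonium markers the sum was between 417 and 517 CPM. None of them was called, and 1, Stra8, was under an unadjusted p of 0.05 (log2 change 0.92, edgeR adjusted p = 0.109). Markers of Leydig cells, macrophages and peritubular myoid cells summed to at most 22.1, 5.98 and 3.60 CPM. The summed level of 8 round spermatid markers was 11.8 and 17.2 CPM in the Tdrd6+/- pools against 27.6 and 25.1 CPM in the Tdrd6-/- pools, where Acrv1 and Spaca1 of the 4 tested passed the test and the protamine and transition protein genes stayed under the filter. Its part in the results below was not tested.

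The largest subunit of Pol II ends in a carboxy-terminal domain (CTD), a tail of short repeats whose phosphorylation marks the steps of transcription. CDK7, the kinase of the general factor TFIIH, acts as transcription starts. CDK9 with cyclin T1 or cyclin T2 forms P-TEFb, which releases paused Pol II into elongation and is held inactive by HEXIM1 on a small nuclear RNA. CDK12 and CDK13, each with cyclin K, phosphorylate the CTD during elongation and are known for sustaining the transcription of long genes. SCAF4 and SCAF8 bind the phosphorylated CTD and are known to restrain the premature use of poly(A) sites. Spermatocytes of late prophase transcribe heavily, since many transcripts made then are kept for later stages.

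Per kilobase of annotated exon, Ccnk stood above the other 9 genes. Its exonic level, in CPM scaled between libraries and divided by exon length, was 55.5 ± 28.1 CPM per kb (SD, n = 4 samples), and 94.9% of 19574 genes with at least 10 counts lay below it. Its kinase partners Cdk13 and Cdk12 followed with 16.7 ± 1.23 and 15.0 ± 2.29 CPM per kb. Scaf8 and Scaf4 had 11.3 ± 1.58 and 10.7 ± 5.57 CPM per kb, and Cdk7 had 9.59 ± 0.40 CPM per kb. The neighbours in this order from Cdk13 down to Cdk7 overlapped over the 4 samples. Below them came Cdk9 at 8.31 ± 0.58, the inhibitor Hexim1 at 4.10 ± 0.41, Ccnt1 at 4.06 ± 0.33 and Ccnt2 at 3.65 ± 0.65 CPM per kb. Per kilobase of coding sequence the first 3 places were the same, but Cdk7, Cdk9 and Ccnt2 came next, then Scaf8, Ccnt1 and Scaf4, and Hexim1 was last. Per kilobase of exon, Hexim1, Ccnt1 and Ccnt2 overlapped. The wide SD of Ccnk and Scaf4 came from the gap between the genotypes, as the plot of exonic levels shows.

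**Figure D1:**
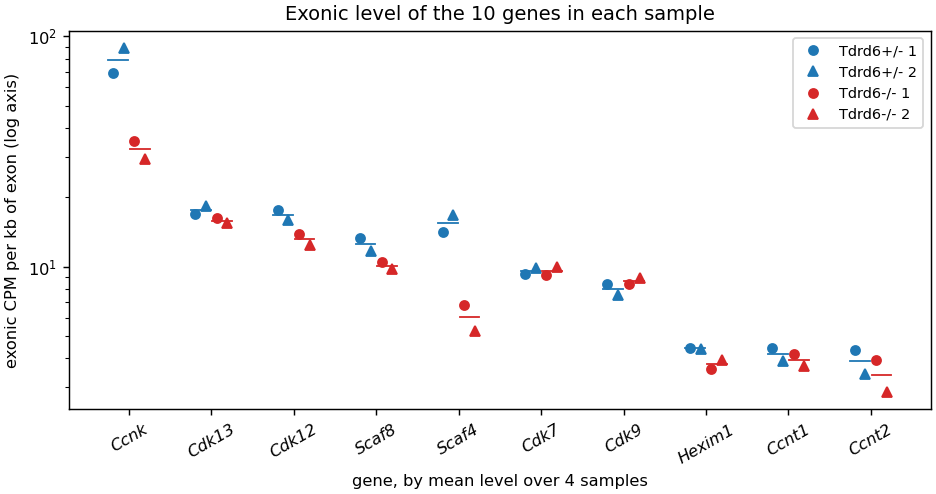
Exonic level of each gene in CPM per kb of annotated exon on a log axis, with circles for replicate 1, triangles for replicate 2, blue for Tdrd6+/-, red for Tdrd6-/- and short lines at the mean of 2 samples. Ccnk and Scaf4 fall apart by genotype, from 78.8 to 32.3 and from 15.4 to 6.04 CPM per kb, while Cdk7 lies at 9.57 and 9.61.

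The exonic counts address whether the genotypes differ in the amount of these transcripts. Ccnk and Scaf4 were lower in the Tdrd6-/- samples, at 41.0% and 39.1% of their Tdrd6+/- means. None of the kinase genes, neither cyclin T gene and not Hexim1 passed the test in either direction. With edgeR's quasi-likelihood test over 16555 genes and a false discovery rate of 0.1, 2 of the 10 genes were called, both lower, beside 3.78% of all genes tested that were called lower. The median log2 change of the 10 genes was -0.22, and that of all genes was 0.01. In 6 of the 10 genes both Tdrd6-/- samples lay below both Tdrd6+/- samples, as they did in 23.4% of all genes tested.

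Ccnk, the gene of cyclin K, had 210.0 and 269 CPM in the Tdrd6+/- pools against 107 and 89.1 CPM in the Tdrd6-/- pools. The groups did not overlap, and the higher Tdrd6-/- sample was well under the lower Tdrd6+/- sample. The fitted log2 change was -1.29 ± 0.15 (SE), from 239.6 ± 41.9 CPM to 98.1 ± 12.8 CPM (SD, n = 2 each). In CPM it stood above Cdk12 and near Cdk13 in the Tdrd6+/- samples and below both in the Tdrd6-/- samples. Cdk12 had 206 and 188 CPM in the Tdrd6+/- pools against 163 and 145 CPM in the Tdrd6-/- pools, a log2 change of -0.35 ± 0.13 (SE). Cdk13 had 227 and 247 CPM against 219 and 208 CPM, a log2 change of -0.15 ± 0.13 (SE). The samples of the genotypes did not overlap for either kinase gene, but both changes were small beside that of Ccnk. Per kilobase of exon, Ccnk RNA stood at 2.00 and 2.57 times the sum of Cdk12 and Cdk13 RNA in the Tdrd6+/- pools and at 1.17 and 1.05 times that sum in the Tdrd6-/- pools. Per kilobase of coding sequence the same ratio was 1.3 and 1.6 against 0.73 and 0.65, so whether Ccnk stood above the sum in the Tdrd6-/- pools depends on the length used.

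Scaf4 and Scaf8 are paralogs, of which Scaf4 was called and Scaf8 was not, and the difference between their changes was not tested. Scaf4 had 78.4 and 92.9 CPM in the Tdrd6+/- pools against 37.9 and 29.1 CPM in the Tdrd6-/- pools. The fitted log2 change was -1.35 ± 0.16 (SE), and the groups did not overlap. Scaf8 had 78.7 and 69.0 CPM in the Tdrd6+/- pools against 61.9 and 57.3 CPM in the Tdrd6-/- pools, a log2 change of -0.31 ± 0.14 (SE). The ratio of Scaf4 to Scaf8 per kilobase of exon was 1.06 and 1.43 in the Tdrd6+/- samples, where Scaf4 was the more abundant of the pair, and 0.65 and 0.54 in the Tdrd6-/- samples, where it was the less abundant. The annotated 3′ end of Scaf4 overlaps Sod1 on the opposite strand, and Sod1 had 13.4 and 15.8 CPM in the Tdrd6+/- pools against 17.9 and 18.1 CPM in the Tdrd6-/- pools.

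None of the P-TEFb genes, the kinase of TFIIH and Hexim1 passed the test. Cdk9 had 38.9 and 34.6 CPM in the Tdrd6+/- pools against 38.7 and 41.0 CPM in the Tdrd6-/- pools, with a log2 change of 0.12 ± 0.15 (SE). Its row was joined by the authors with that of the overlapping Mir2861. Ccnt1 had 40.7 and 35.5 CPM against 38.4 and 33.8 CPM, a log2 change of -0.08 ± 0.16 (SE). Ccnt2 had 53.8 and 42.5 CPM against 48.7 and 35.2 CPM, a log2 change of -0.20 ± 0.17 (SE). For both cyclin T genes the samples overlapped, and replicate 2 was the lower sample in each genotype. Cdk7 had 34.5 and 36.5 CPM against 34.1 and 37.1 CPM, a log2 change of 0.01 ± 0.15 (SE), the nearest to 0 of the 10. Hexim1 had 15.6 and 15.4 CPM against 12.6 and 13.7 CPM, without overlap, and a log2 change of -0.23 ± 0.19 (SE). The level of Hexim1 for each unit of Cdk9, per kilobase of exon, was 0.53 and 0.59 in the Tdrd6+/- pools against 0.43 and 0.44 in the Tdrd6-/- pools.

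The stretches ahead of the genes that fell are shown because both fell, from RefSeq on GRCm38.p6, up to the first annotated exon and for at most 250 bases. The capitals mark the GC box GGGCGG on either strand.
Ccnk, chr12:108179488-108179578, plus strand: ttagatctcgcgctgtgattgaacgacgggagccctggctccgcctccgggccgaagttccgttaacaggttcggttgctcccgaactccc
Scaf4, chr16:90284504-90284753, minus strand: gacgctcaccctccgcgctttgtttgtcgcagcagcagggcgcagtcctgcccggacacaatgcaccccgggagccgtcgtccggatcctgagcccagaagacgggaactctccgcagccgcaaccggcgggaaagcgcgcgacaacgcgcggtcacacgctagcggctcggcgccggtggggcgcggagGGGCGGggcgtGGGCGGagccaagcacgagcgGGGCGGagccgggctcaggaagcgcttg
The Scaf4 stretch of 250 bases holds 3 GC boxes and the shorter Ccnk stretch of 91 bases none, so the counts are not over equal lengths. In windows from 250 bases before to 50 bases after the start, with matches counted on both strands, GGGCGG was found in 9 of the 10 genes, all but Scaf8, the match of Ccnk lying after the start, beside 35.6% of 32817 windows of all genes. CCAAT was found in 5 of the 10 genes, Ccnk, Ccnt2, Cdk9, Hexim1 and Scaf8, beside 37.4% of all windows. TATAAA was found in 0 of the 10 genes, beside 13.6% of all windows. The GC content of the windows was between 54.0% in Cdk7 and 78.3% in Cdk9 and Cdk13, and the median of all windows was 52.7%.

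Intronic counts were taken to stand for RNA that is not yet spliced and were scaled on the intronic counts of all genes. They can also hold retained introns or unannotated exons, and exonic counts include the exons of unspliced RNA. No gene of the 10 was called, although Ccnk and Scaf4 had lower intronic counts too. The intronic level of Ccnk was 190.2 and 231 CPM in the Tdrd6+/- pools against 133 and 151 CPM in the Tdrd6-/- pools, and its log2 change was -0.57 ± 0.21 (SE). That of Scaf4 was 229.6 and 204 CPM against 158 and 138 CPM, with a log2 change of -0.55 ± 0.21 (SE). In both genes the genotypes were separated, at 67.5% and 68.2% of the Tdrd6+/- mean. Cdk13 had 407 and 296 CPM on introns against 266 and 245 CPM, a log2 change of -0.46 ± 0.21 (SE), which was the next largest fall. Cdk12 and Scaf8 followed with log2 changes of -0.34 ± 0.21 and -0.33 ± 0.21 (SE). The introns of Cdk9 had the fewest counts, with 10.3 and 9.67 CPM against 10.6 and 16.3 CPM and a log2 change of 0.43 ± 0.28 (SE). The changes of Ccnt1, Cdk7 and Ccnt2 lay between -0.11 and 0.01 on the log2 scale.

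With edgeR's test over 15025 genes 0 of 9 genes were called on intronic counts, beside 1.42% of all genes tested. At an unadjusted p under 0.05 there were 3, beside 1918 of all genes tested, and DESeq2's Wald test called 2, Ccnk and Scaf4, beside 378 of the 5121 genes it tested. In 5 of the 9 genes both Tdrd6-/- samples lay below both Tdrd6+/- samples, as in 21.4% of all genes tested.

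The exonic change was then compared with the intronic change of the same gene in 1 model, which asks whether the 2 kinds of counts moved by unequal amounts. It does not separate spliced from unspliced RNA. Ccnk and Scaf4 were called, with exonic counts that fell more than intronic ones. The difference of the log2 changes was -0.71 ± 0.17 (SE) for Ccnk and -0.80 ± 0.16 (SE) for Scaf4. The other 7 genes with introns lay between -0.28 for Cdk9 and 0.30 for Cdk13 and were not called. Thus 2 of 9 genes were called, both lower, beside 1.18% of 13903 genes called lower and 2.98% called in either direction. In simulated data the test recovered 39% of log2 differences of 1, so a gene not called may still differ.

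The unscaled ratio of intronic to exonic counts shows the same contrast within each sample. For Ccnk it was 0.44 and 0.37 in the Tdrd6+/- pools against 0.53 and 0.54 in the Tdrd6-/- pools. For Scaf4 it was 1.41 and 0.95 in the Tdrd6+/- pools against 1.78 and 1.52 in the Tdrd6-/- pools. Over all genes the ratio went the other way, from 0.53 and 0.42 to 0.43 and 0.31. Among the 10 genes it was also lower on average in the Tdrd6-/- samples for Cdk12, Cdk13, Ccnt1, Ccnt2, Scaf8 and Cdk7, as for Cdk13 with 0.86 and 0.52 against 0.52 and 0.38. For Cdk9 the means were 0.12 in both genotypes.

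These calls rested on the scaling and on single samples. With exonic and intronic counts scaled together, the difference was -0.41 for Ccnk and -0.50 for Scaf4 and 0 of the 9 genes were called, while the median of all genes moved from -0.06 to 0.23 and the share of calls that were lower moved from 39.6% to 2.59%. The call for Ccnk was lost without Tdrd6+/- replicate 1 (-0.74) and without Tdrd6-/- replicate 2 (-0.49), and the call for Scaf4 without Tdrd6+/- replicate 2 (-0.59).

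**Figure D2:**
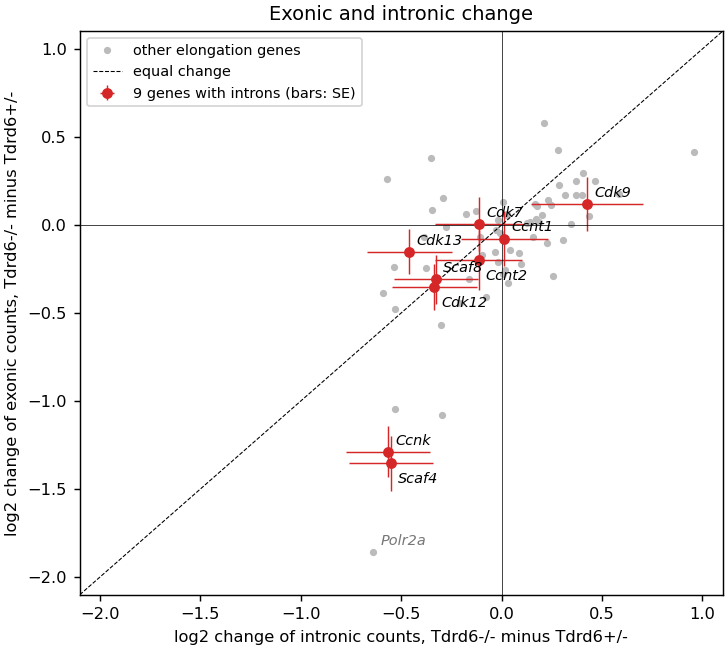
Log2 change between genotypes of the exonic counts (vertical axis) against that of the intronic counts (horizontal axis), with red points and SE bars for the 9 genes with introns, grey points for other elongation genes and a dashed line where both are equal. Ccnk and Scaf4 lie below the line at intronic changes of -0.57 and -0.55, and Polr2a lies lower still at an exonic change of -1.86.

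Along Ccnk the size of the fall varied between exon segments in these samples. In the main fit no segment or junction of Ccnk was called when each was tested against the gene total. In mm10 the gene occupies bases 108179579 to 108203359 of chromosome 12, plus strand. Its first 6 exon segments stood at 35.1% to 36.8% of the Tdrd6+/- mean in the Tdrd6-/- samples, segment 7 at 41.5%, segments 8 to 10 at 53.8% to 59.1%, and the long last segment at 48.2%. After scaling, the segments were lower in both Tdrd6-/- samples than in both Tdrd6+/- samples, as the gene as a whole was. Exon segment 2, which holds the start codon, had 1804 and 2410 counts in the Tdrd6+/- pools against 940 and 793 counts in the Tdrd6-/- pools. Exon segment 10, the last but 1, had 228 and 396 counts against 221 and 210 counts, so the count of Tdrd6+/- replicate 1 was close to those of the Tdrd6-/- samples before scaling. The Tdrd6+/- replicates also parted most over segments 8 to 10, where replicate 2 was the higher.

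The junctions showed the same course. Those after exons 2 to 5 stood at 32.7% to 35.7% of the Tdrd6+/- mean, those after exons 6 and 7 at 45.1% and 44.5%, and those after exons 8 to 10 at 55.3% to 70.4%. The joins with the lowest and the highest of these values are given as the 30 coding bases on each side, from GENCODE M21, with the second exon in capitals.
Ccnk exon 3 to exon 4: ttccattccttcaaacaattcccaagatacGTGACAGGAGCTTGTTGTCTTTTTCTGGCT
Ccnk exon 9 to exon 10: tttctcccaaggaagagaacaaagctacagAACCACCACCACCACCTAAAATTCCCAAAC
The first of them had 646 and 730 counts in the Tdrd6+/- pools against 280 and 249 counts in the Tdrd6-/- pools. The second had 83 and 147 counts against 99 and 90, so that the raw counts of the genotypes overlapped there. The annotated junction after exon 1 had 0 counts in all samples. Of the unannotated junctions of the gene, 1 had 374 and 496 counts against 188 and 163, and another had 376 and 468 against 191 and 134. The count tables give no coordinates for them, and GENCODE M21 holds a Ccnk transcript with an additional exon of 32 bp inside intron 1.

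Relative to the control samples, the introns of Ccnk stood lowest at the start of the gene and highest at its end. Intron 1 spans 6468 bp (chr12:108179893-108186360) and held 803 and 981 counts in the Tdrd6+/- pools against 446 and 369 counts in the Tdrd6-/- pools, which after scaling was 47.7% of the Tdrd6+/- mean. Because the additional exon of 32 bp lies inside intron 1, its counts may include spliced RNA, and the size of that part was not tested. The same limit holds for the usage of intron 1 and for the summed intronic counts of Ccnk. It extends to the usage of intron 10, which is measured against the other introns of the gene, intron 1 among them. Introns 2 to 5 stood at 53.3% to 74.3%, introns 6 to 8 at 71.7% to 81.5%, and intron 9 at 86.2%. Intron 10, the last, spans 2692 bp (chr12:108199384-108202075) and held 460 and 570 counts against 495 and 477 counts. Its scaled level was 41.8 ± 7.57 CPM in the Tdrd6+/- samples and 41.6 ± 7.14 CPM in the Tdrd6-/- samples (SD, n = 2 each), and its groups overlapped, as did those of 1 of introns 6 to 8. Averaged over the 4 samples, intron 10 held 15.5 CPM per kb and intron 1 held 8.26 CPM per kb, while the short intron 5 was the densest with 21.9 CPM per kb.

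Differential usage relates each intron to the other introns of its gene. Intron 1 of Ccnk took 33.4% and 35.2% of the intronic counts of the gene in the Tdrd6+/- pools against 24.8% and 23.8% in the Tdrd6-/- pools, and intron 10 took 19.1% and 20.4% against 27.6% and 30.8%. The fitted log2 change of usage was -0.70 ± 0.17 (SE) for intron 1 and 0.74 ± 0.17 (SE) for intron 10. Of the 38 introns of the 10 genes whose mean count passed the filter of 85.5, these 2 were called at a false discovery rate of 0.1, beside 1.94% of 28903 introns. The call of both was lost when either Tdrd6+/- sample or Tdrd6-/- replicate 2 was left out, where 0 introns of the 10 genes were called, and under edgeR's usage test, which also called 0. Measured against the exonic count of the gene instead, intron 1 turned to 0.23 and was not called, while introns 9 and 10 of Ccnk and introns 1 and 7 of Scaf4 were called higher.

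Along Scaf4 the exon segments stood highest at the start of the gene. In mm10 it occupies bases 90225680 to 90284503 of chromosome 16, minus strand. Taken in transcript order, its first exon segment stood at 85.1% of the Tdrd6+/- mean and its second at 55.1%, while the other 22 stood between 31.6% and 46.9%. The first segment held 12 and 14 counts in the Tdrd6+/- pools against 13 and 13 in the Tdrd6-/- pools, so its value rests on few fragments, and the second held 68 and 90 against 56 and 46. The first intron of Scaf4, of 20826 bp, stood at 76.1% with 1059 and 926 counts against 900 and 567, and the last, of 12282 bp, at 55.1% with 535 and 455 counts against 317 and 211. Over its 19 introns the range was 38.9% to 84.5%. Its 23 annotated and unannotated junctions stood between 0.181 and 0.573 times the Tdrd6+/- mean, and they share the fall of the gene. Of the 19 introns of Scaf4, 3 passed the filter on mean count in the usage test, and none of these was called.

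**Figure D3:**
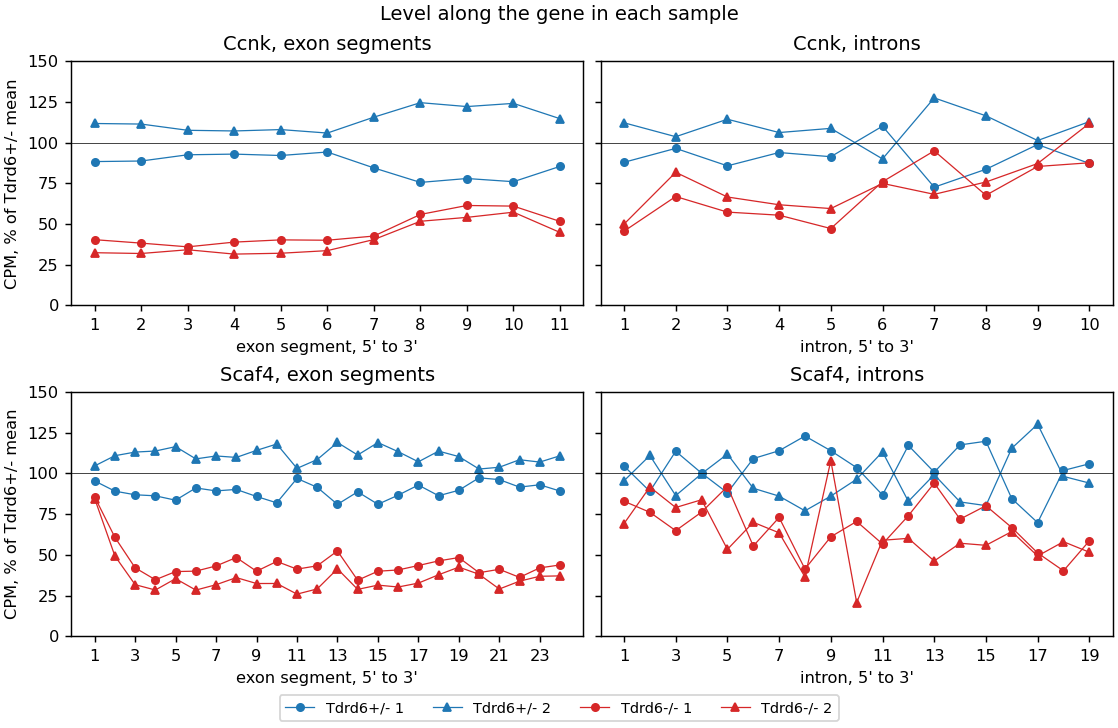
Scaled level of each exon segment (left) and intron (right) of Ccnk (top) and Scaf4 (bottom) in each sample, as percent of the mean of the 2 Tdrd6+/- samples, in transcript order. In Ccnk the mean of the red Tdrd6-/- lines lies between 35.1% at exon segment 2 and 59.1% at segment 10, and between 47.7% at intron 1 and 99.7% at intron 10. In Scaf4 the first 2 exon segments, of which the first has few counts, stand above the others, and the introns lie between 38.9% and 84.5%.

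In the other genes the segments were read by their range. In Cdk12 the 30 exon segments stood between 0.520 and 0.979 times the Tdrd6+/- mean with a median of 0.758, and in Cdk13 the 14 segments stood between 0.744 and 0.995 times that mean with a median of 0.868. In both genes the intron with the most counts was also lower, as intron 13 of Cdk12 with 1417 and 1016 counts in the Tdrd6+/- pools against 1003 and 713 in the Tdrd6-/- pools, and intron 1 of Cdk13, of 30480 bp, with 2287 and 1541 against 1422 and 1009. Intron 1 of Scaf8, of 29656 bp, held 1069 and 722 counts against 877 and 583. Intron 2 of Ccnt2 held 514 and 480 counts against 526 and 298, intron 3 of Ccnt1 held 147 and 132 against 135 and 109, and intron 2 of Cdk7 held 164 and 154 against 150 and 87. In each of these genes Tdrd6-/- replicate 2 had the lowest count of the intron, and its library also had the lowest intronic share. None of these introns was called in usage. Over introns with at least 50 counts in total, the range was 0.636 to 1.58 times the Tdrd6+/- mean in Cdk12 and 0.492 to 1.44 in Cdk13. It was 0.460 to 1.06 in Scaf8, 1.13 to 1.74 in Cdk9 and 0.777 to 1.33 in Ccnt1. In Ccnt2 and Cdk7 it was 0.832 to 1.69 and 0.762 to 1.78, beside 0.477 to 0.997 in Ccnk. These ranges do not compare the genes, since introns with few counts scatter more. The highest value of Cdk12 was that of intron 14, with 13 and 15 counts in the Tdrd6+/- pools against 26 and 17. The extremes of Ccnk were introns 1 and 10, which held far more counts. Whether the spread over introns was particular to Ccnk was not tested.

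Exon and junction usage relates each exon segment and junction to the total of its gene. Of 186 exon segments and junctions of the 10 genes that passed the filter on mean count, 0 were called with the DESeq2 likelihood ratio test, beside 0.221% of 147710 over all genes, and edgeR's usage test also called 0. In simulated data the DESeq2 test recovered 20.5% of log2 changes of 1, so the absence of calls does not show even usage. Among all 274 with at least 10 counts, 21 had an unadjusted p under 0.05, beside 9534 of 323115 over all genes. Without Tdrd6+/- replicate 2, 3 features of Ccnk were called, exon segments 8 and 10 and the junction of exons 9 and 10, all higher.

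The wider elongation machinery was read from 62 further genes in 10 groups. With edgeR's test on exonic counts 7 of the 62 fell and none rose, beside 3.78% of all genes called lower, and the median log2 change of 0.01 was that of all genes too. Polr2a, the gene of the largest Pol II subunit that carries the CTD, fell most, from 261 and 256 CPM in the Tdrd6+/- samples to 77.5 and 65.1 CPM in the Tdrd6-/- samples. Its log2 change was -1.86 ± 0.14 (SE, edgeR adjusted p = 2.6e-08), larger than that of any of the 10 genes. Cdc73, a subunit of the PAF1 complex, fell by 1.05 on the log2 scale (edgeR adjusted p = 0.000177), from 102 and 97.2 CPM to 54.8 and 41.8 CPM. Cdk8 and Cdk19, the paralogous kinases of the Mediator complex, fell by 1.08 and 0.48 on the log2 scale (edgeR adjusted p = 0.000731 and 0.0487).

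Rprd2, which binds the CTD, and Supt6, a histone chaperone that travels with Pol II, fell by 0.57 and 0.41 on the log2 scale (edgeR adjusted p = 0.0172 and 0.0941). None of the 9 other TFIIH genes, the 6 of DSIF and NELF, which hold and release paused Pol II, the 9 of the super elongation complex or the 6 CTD phosphatase genes was called, and at an unadjusted p under 0.05 there was 1, Supt4a of DSIF. DESeq2's Wald test called the same 7 genes and none of those 4 groups. Without a filter on low counts Rprd2, Supt6 and Cdk19 were not called. Supt6 was also not called with another scaling between libraries (RLE).

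**Figure D4:**
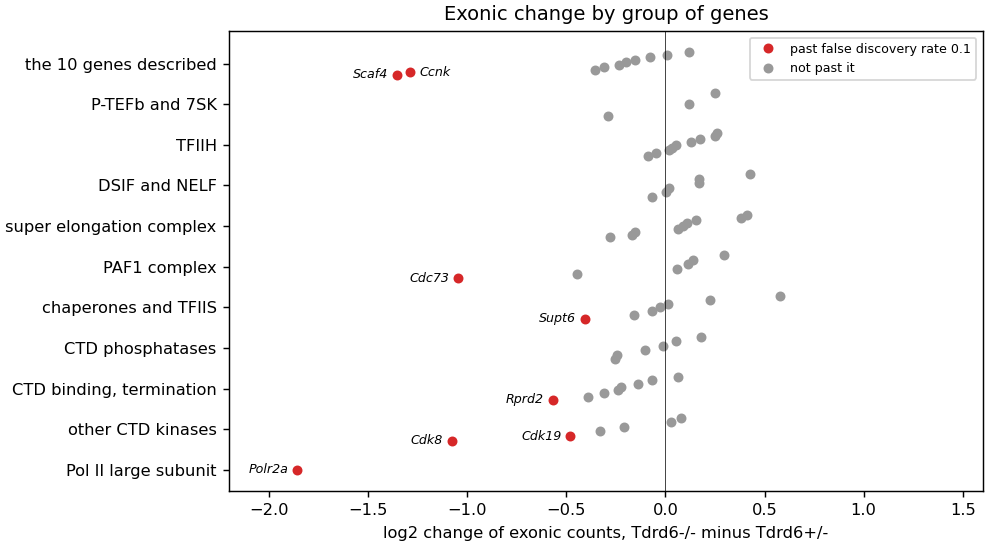
Log2 change of exonic counts between genotypes for the 10 genes described and further elongation genes by group, 1 point per gene, red where the gene passed the false discovery rate of 0.1. All red points lie below 0, from Polr2a at -1.86 to Supt6 at -0.41.

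On intronic counts 0 of the 62 genes were called with edgeR, 8 were under an unadjusted p of 0.05, beside 1918 of 15025 genes in all, and DESeq2's Wald test called 2, Rprd1b and Polr2a. Polr2a, the only gene of its group, had a log2 change of -0.64 ± 0.21 on introns (SE, edgeR adjusted p = 0.13). When exonic and intronic changes were compared, 4 of the 62 were called, 3 lower and 1 higher, beside 2.98% of all genes in either direction. Polr2a (-1.21, edgeR adjusted p = 4.5e-05) and Cdk8 (-0.77, edgeR adjusted p = 0.027) had exonic counts that fell more than intronic ones, as Ccnk and Scaf4 did. Mnat1, which holds CDK7 and its cyclin together in TFIIH, went the other way (0.83, edgeR adjusted p = 0.021). Neither its exonic log2 change of 0.26 ± 0.18 (SE) nor its intronic one of -0.57 ± 0.21 (SE) was called. With both kinds of counts scaled together 3 of the 62 were called, Polr2a, Mnat1 and Ell2.

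CDK12 is known for sustaining genes of DNA repair, and a list of Brca1, Atr, Fanci and Fancd2 was read for this reason. None of the 4 was called in exonic counts, intronic counts or the difference of both, none was under an unadjusted p of 0.05, and DESeq2 called none. Brca1 had the largest exonic change, with a log2 change of 0.29 ± 0.18 (SE, edgeR adjusted p = 0.51), and the others lay between -0.14 and -0.06. P-TEFb is known for the release of Pol II at immediate early genes. Of 5 such genes Jun, Egr1 and Ier2 passed the filter on low counts, and none was called by edgeR or DESeq2. Jun was under an unadjusted p of 0.05, with a log2 change of -0.57 ± 0.22 (SE, edgeR adjusted p = 0.21).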

How the data were processed

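The deposited counts were not normalized. The authors used GSNAP on mm10 and the gene models of Ensembl 75, and counted fragments on introns in one file per sample and on genes, exon segments and junctions in another, merging overlapping genes. The submitters' processing notes name bcl2fastq 1.8.4. Symbols, lengths and intron positions came from GENCODE M21 of GRCm38 by the order of introns. The 104 introns of the genes described that could be placed are all but those of Cdk9, and exon segments and junctions were matched by order.

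Exonic and summed intronic counts were tested with edgeR 4.0.16 in R 4.3.3 (TMM, filterByExpr, quasi-likelihood test), their difference with an interaction term, and usage with DESeq2 1.42.0 likelihood ratio tests built after DEXSeq and JunctionSeq, on features with at least 10 counts. The Benjamini-Hochberg rate was 0.1 over all features. Scripts were tested on simulated data with a log2 change of 1. The tests recovered 91.5% of changed features on exonic counts, 92% on intronic counts and 39% for the difference. Intron usage recovered 60.5%. Exon and junction usage recovered 20.5%, and 31.7% of its calls were unchanged features. The 10 genes and all lists were chosen with earlier results of these data known. Named are all 10 genes, their introns and junctions that were called or had the most counts, called genes of the elongation lists, Polr2a, and at most 2 genes of each repair and immediate early list. 1 gene of the elongation lists is counted but not reported here or drawn. Other genes are named where a count of 5 or fewer needed it, and stretches of Ccnk and Scaf4 were picked after their values were seen. The labels do not say whether samples of a genotype came from separate litters. The p-values rest on 2 pools per genotype and on dispersions moderated over all genes or features. An exact permutation test of 2 against 2 cannot go below 0.33.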

Additional observations from a re-analysis of the deposited data

How the results depend on the processing

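The exonic falls of Ccnk and Scaf4 were called under 9 of 9 alternatives each, with log2 changes of -1.44 to -1.10 and -1.56 to -1.17, and the other 8 genes were not called except Cdk12 under the replicate block. Of the counts, 80 of 128 stayed within 1.5 times the value reported. The others follow. Genes called on exonic counts numbered 75 without a filter on low counts in place of 794, and elongation genes 3 in place of 7. DESeq2's Wald test on introns called 378 genes in place of 214, with 2 of the genes described and 2 elongation genes in place of 0. For the difference of exonic and intronic change the DESeq2 likelihood ratio test called 254 genes in place of 414, and joint scaling 0 of the genes described in place of 2. For intron usage edgeR's test called 2 introns in place of 561 and 0 of the genes described in place of 2, no independent filter gave 220, and usage against the exonic count gave 1284 and 4. A dispersion trend over both counts, added after seeing the data, gave 1 intron and 0 of the genes described, and 62 exons and junctions in place of 327, where edgeR's usage test called 80. Intron 1 of Ccnk reversed to 0.23 against the exonic count.

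Replicate numbers mark no shared litter or batch in the labels. The deviations of same-numbered samples correlated at -0.11 over 12347 genes on exons and -0.09 over 11335 genes on introns. With the replicate block 881 introns were called in usage, 1046 genes on exonic counts, 189 on intronic counts and 457 for the difference, with 3 of the genes described on exonic counts in place of 2 and no other change in their counts. A crossed pairing, added after seeing the data, gave 1175, 82 and 174 genes, 255 introns and 279 exons and junctions. It gave 2 elongation genes for the difference, without Cdk8 and Mnat1.

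With 1 sample left out in turn, genes called ranged from 257 to 1064 on exonic counts, 4 to 951 on intronic counts and 60 to 1263 for the difference. Introns ranged from 4 to 1175, and exons and junctions from 51 to 763. For the genes described the range was 1 to 2 for the difference, 0 to 2 introns and 0 to 3 exons and junctions. Elongation genes ranged from 4 to 7 on exonic counts, 0 to 4 on intronic counts and 1 to 11 for the difference. Per coding kilobase in place of exon length Ccnk stayed first and Scaf4 moved to the ninth place. Introns under a mean count of 85.5 received no adjusted p in usage.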
